A study of Mus musculus with 24 samples.

Results

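The subject is the response of the mouse uterus to a 6-hour exposure to progesterone when the uterus lacks much of its Ctcf, a DNA-binding protein that anchors chromatin loops. It was read from 4 knockout libraries after progesterone (numbered 4, 5, 6 and 8 in the labels) and the 4 knockout vehicle libraries of the same batch (9, 10, 11b and 12), which are 8 of the 24 libraries of the series. All expressed genes were examined, which left 14059 of 22943 genes. The animals were C57bl/6 females, 21 days of age. Knockouts carried Ctcf alleles flanked by loxP sites (Ctcf f/f) and a Cre recombinase expressed from the Pgr gene (PgrCre+), so deletion is expected in cells that express, or have expressed, the progesterone receptor. Controls, called floxed here, were Ctcf f/f littermates without Cre. Both the loss of Ctcf and the Cre allele at Pgr set the genotypes apart and cannot be told apart in these data. Progesterone was given under the skin at 0.5 mg, and vehicle was 0.05 ml of sesame oil. Whether the libraries stem from different animals is not in the labels, and a p-value here covers the scatter among libraries only.

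Progesterone enters cells and binds its receptor, encoded by Pgr, a transcription factor of the same class as the glucocorticoid and mineralocorticoid receptors, and these receptors recognise nearly the same DNA element. In the uterine epithelium the receptor induces Indian hedgehog (Ihh), which signals to receptors in the stroma beneath it, and there it prepares the tissue for implantation and restrains the growth that estrogen drives. CTCF and cohesin hold chromatin loops that can bring distant enhancers to promoters or keep them apart.

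Levels are given as RPKM (read counts divided by gene length and library depth) after the batch correction of the authors, which leaves some values slightly below 0. Differences are log2 fold changes of RPKM + 0.5 with values below 0 set to 0, given with the standard error (SE). Such changes understate those of low genes, and the constant that the correction added to a gene moves them in either direction. A gene was called at a limma adjusted p under 0.05 over all tested genes, and a mean is followed by the SD of 4 libraries. Estimated depth ran from 45000000 to 84600000 reads over the 8 knockout libraries. Ctcf itself (chr8:105636568-105682922, mm10) read 11.4, 10.4, 12.4 and 13.1 RPKM in knockout vehicle libraries 9, 10, 11b and 12 and 10.7, 9.17, 10.9 and 9.04 RPKM in progesterone libraries 4, 5, 6 and 8. Every knockout library lay below every floxed library, whose means were 25.5 and 26 RPKM after vehicle and progesterone. Ctcf did not pass the test for a response to progesterone in the knockouts (-0.24, SE 0.08, adjusted p 0.0912).

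Some libraries stood apart in their tissue makeup. Vehicle library 9 had summed stromal markers of 2461 RPKM against 1369 to 1381 RPKM in the other knockout vehicle libraries, smooth muscle markers of 2149 against 1337 to 1371 RPKM, and squamous epithelium markers, which a uterus should largely lack, of 144.9 against 5.32 to 15.1 RPKM. Progesterone library 8 differed from libraries 4, 5 and 6 in the same lists, with 1592 against 1101 to 1185 RPKM for stroma, 2022 against 1181 to 1278 RPKM for smooth muscle and 51.3 against 5.61 to 6.99 RPKM for squamous epithelium. Vehicle library 12 held oviduct markers at 368 RPKM against 109.9 to 122.1 RPKM in the other knockout vehicle libraries. Other lists varied too. Adipose markers summed to 143, 140, 724 and 359 RPKM in progesterone libraries 4, 5, 6 and 8 and to 263 to 653 RPKM after vehicle. Leukocyte markers were at 189 RPKM in progesterone library 4 against 328 to 480 RPKM in libraries 5, 6 and 8, and 254 to 468 RPKM after vehicle. Leaving out libraries 9, 12 and 8 does not remove these differences. Markers of uterine epithelium, stroma and smooth muscle were present in all 8 libraries, with simple epithelium summing to 362 to 663 RPKM. For genes described below as changed in the knockouts whose call was lost when vehicle libraries 9 and 12 and progesterone library 8 were left out together, the adjusted p without them is given.

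**Figure D1:**
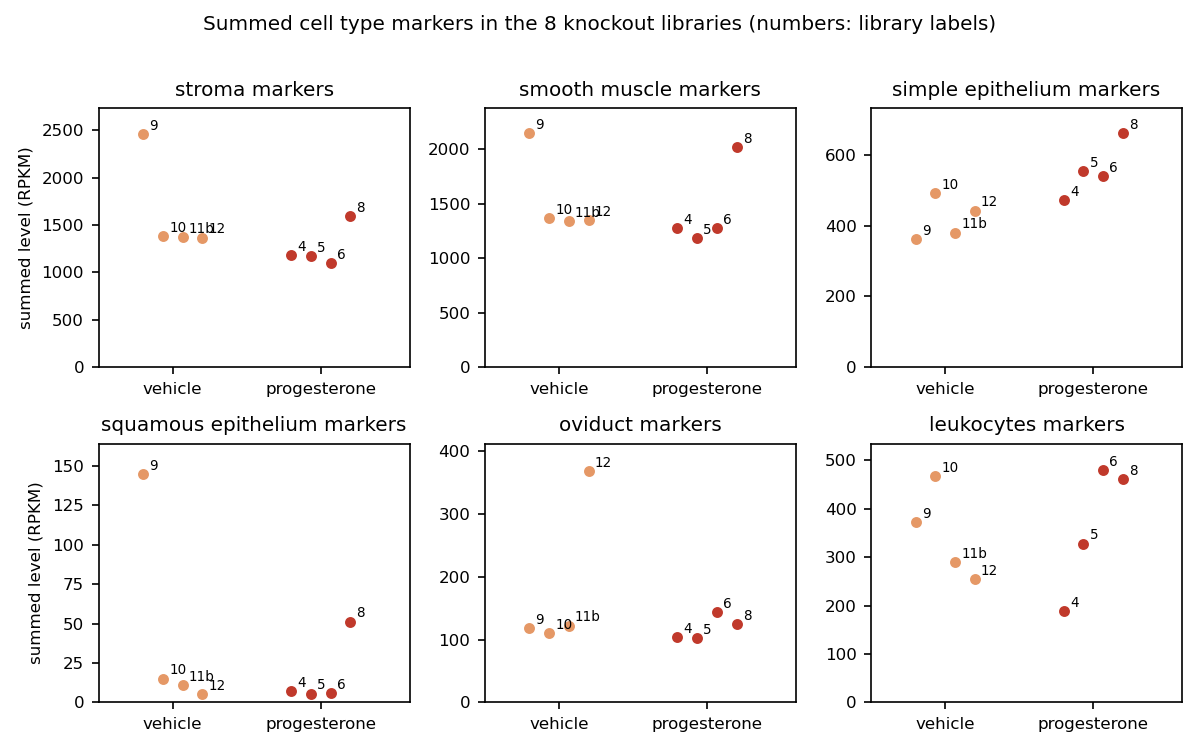
Summed level, in RPKM, of the markers of 6 cell types in each of the 8 knockout libraries, labelled by library number, with vehicle on the left and progesterone on the right of each panel. Vehicle library 9 and progesterone library 8 stand above the rest of their groups in stroma, smooth muscle and squamous epithelium, and vehicle library 12 does so in oviduct markers.

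Progesterone changed 1229 of 14059 genes in the knockout uterus (8.74%), of which 612 were higher (4.35%) and 617 lower (4.39%). Of these, 175 changed at least 2-fold, 134 of them higher (0.953%) and 41 lower (0.292%), so large changes were mostly increases. The median size of a called change was 0.57 on the log2 scale, and the median over all tested genes was -0.01. The 8 libraries did not overlap between treatments for 1996 genes (14.2%). The count called depended on single libraries: it was 854 without vehicle library 9 and 799 without vehicle library 11b. Without the 3 libraries that stood apart (vehicle 9 and 12, progesterone 8) it was 402, of which 378 were among the 1229. That fit kept fewer libraries in both knockout treatments, which lowers the power to call a gene. A call lost in it, here or below, is therefore not read as an effect of tissue makeup. When the spread was estimated from the 8 knockout libraries alone the count was 613. In whole tissue, fewer cells of a type and less RNA per cell cannot be told apart.

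**Figure D2:**
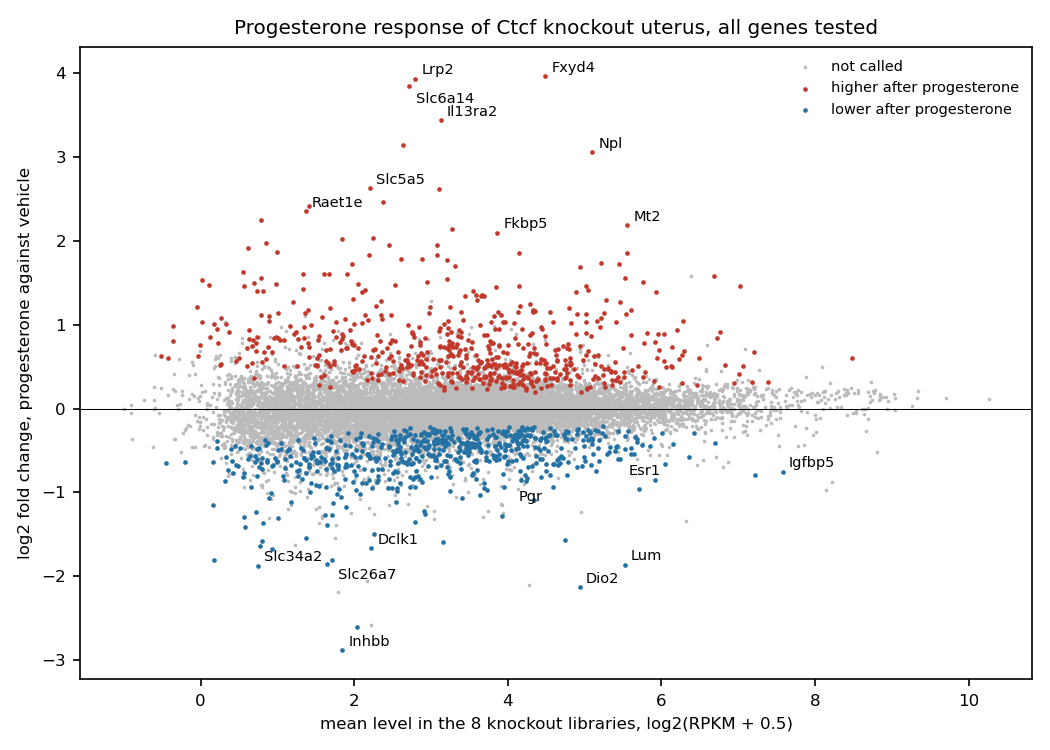
Log2 fold change after progesterone in the knockout uterus (vertical axis) against the mean level in the 8 knockout libraries (horizontal axis, log2 of RPKM + 0.5), with 1 point per tested gene. The 612 higher genes (red) reach 3.97 for Fxyd4, while the 617 lower genes (blue) reach -2.88 for Inhbb.

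Among genes that reached a mean of 1 RPKM and did not overlap between treatments, the 15 highest called increases ran from 2.10 to 3.97 on the log2 scale and were led by Fxyd4, Lrp2 and Slc6a14. Fxyd4 (chr6:117933559-117937692), a regulator of the sodium-potassium pump, read 2.15, 2.69, -0.583 and 8.88 RPKM in vehicle libraries 9, 10, 11b and 12 and 48.7, 30.7, 27.1 and 55.7 RPKM in progesterone libraries 4, 5, 6 and 8 (3.97, SE 0.59, adjusted p 0.000733). Lrp2 (chr2:69424340-69586065), the endocytic receptor megalin of absorptive epithelia, read -0.00326, 0.664, -0.332 and 1.11 RPKM after vehicle and 16, 14.6, 11.3 and 8.19 RPKM after progesterone (3.94, SE 0.33, adjusted p 8.08e-06). In both genes the treatments were far apart, with vehicle library 12 the highest of its group. Slc6a14 (chrX:21714896-21742355), a transporter of neutral and cationic amino acids, read 0.207, 0.495, 0.315 and 0.346 RPKM after vehicle and 16, 12.6, 8.63 and 10.1 RPKM after progesterone (3.85, SE 0.25, adjusted p 9.35e-07). Il13ra2 (chrX:147383476-147429192), a decoy receptor for interleukin 13, read 0.620, 0.815, 0.852 and 1.20 RPKM and then 18.2, 16.2, 6.38 and 21.5 RPKM (3.44, SE 0.28, adjusted p 8.08e-06). Npl (chr1:153503015-153550045), an enzyme that breaks down sialic acid, read 4.8, 6.04, 5.98 and 11.7 RPKM and then 52.2, 57.2, 61.6 and 70.1 RPKM (3.06, SE 0.30, adjusted p 2.84e-05). Progesterone library 6 was the lowest of its group for Slc6a14 and Il13ra2 but not for Npl.

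The other 10 of the 15 highest rose by 2.10 to 3.14 on the log2 scale. Acbd7, an acyl-CoA binding protein, read 0.418, 0.792, 0.619 and 0.918 RPKM after vehicle and 19.3, 8.08, 6.35 and 9.37 RPKM after progesterone. Slc5a5, the sodium-iodide symporter, read 0.666, 0.805, 0.776 and 0.577 RPKM and then 11.8, 8.62, 4.66 and 4.81 RPKM. Insl6, an insulin-like peptide, read 1.76, 1.99, 1.65 and 1.86 RPKM and then 21.3, 15, 8.08 and 13.2 RPKM. In these 3 genes progesterone library 4 was the highest, and no library crossed between treatments. Pla2g10, a secreted phospholipase A2, spread widely, with 13.6, 8.48, 2.34 and 9.65 RPKM after progesterone against 0.737 to 1.10 RPKM after vehicle. Raet1e, which encodes a cell-surface ligand of the NKG2D receptor of lymphocytes and belongs to a family whose near-identical members may share reads, rose from a mean of 0.335 ± 0.0767 to 3.83 ± 1.01 RPKM (2.35, SE 0.20). Slc51a, a subunit of a steroid and bile acid exporter, rose from 0.0997 ± 0.0573 to 2.36 ± 0.493 RPKM (2.24, SE 0.24). Spink8, a protease inhibitor, rose from 3.19 ± 1.27 to 15.1 ± 2.78 RPKM (2.15, SE 0.23). Tnni1, a slow-muscle troponin subunit, read 4.96, 4.76, 2.42 and 3.85 RPKM after progesterone against 0.134 to 0.498 RPKM after vehicle. None of the 5 tested skeletal muscle markers was called. The list summed to 45.1 to 104 RPKM after vehicle and 53 to 138.1 RPKM after progesterone, and its part in the rise of Tnni1 was not tested. All 15 genes were called with each library left out in turn wherever they were tested. Tnni1 and Raet1e reached 1 RPKM only in the 4 knockout progesterone libraries, so they passed the filter only through the group where they are high. Neither was tested when 1 of these libraries was left out. On the untransformed RPKM scale 2 of them lost the call, Fxyd4 (adjusted p 0.172) and Pla2g10 (adjusted p 0.163).

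Of 29 tested regulators that progesterone shares with glucocorticoids, 13 rose and 1 fell, where 4.35% of all tested genes rose and 4.39% fell. The list's median change was 0.46 against -0.01 over all tested genes. The lists, here and below, were chosen with earlier results of these data known. Their counts beside the shares over all tested genes are a description and are not read as support. Fkbp5 (chr17:28399094-28517527), a co-chaperone that tunes steroid receptors, read 4.25, 3.02, 5.37 and 7.70 RPKM after vehicle and 30.4, 22.5, 15.6 and 23.1 RPKM after progesterone (2.10, SE 0.22, adjusted p 4.23e-05). The metallothioneins Mt1 and Mt2, small metal-binding proteins whose similar genes may share reads, rose from 50.5 ± 8.68 to 154 ± 36.1 RPKM and from 17.4 ± 8.31 to 75.3 ± 27.1 RPKM. Mt2 was highest in progesterone library 8 at 116 RPKM, with 58.2 to 67.2 RPKM in the others. Zbtb16, a zinc-finger repressor, rose from 3.16 ± 0.892 to 12.7 ± 4.21 RPKM, Hif3a, a hypoxia-inducible factor subunit, from 2.73 ± 0.568 to 11 ± 4.00 RPKM, and the sulfotransferase Sult1a1 from 16.2 ± 1.25 to 47.3 ± 15 RPKM. Klf15, a Kruppel-like factor of steroid and metabolic responses, rose from 4.83 ± 1.00 to 8.66 ± 0.868 RPKM. Without the 3 libraries that stood apart 6 of the 29 rose, none fell and the median was 0.30, and Sult1a1 and Klf15 were not called (adjusted p 0.0509 and 0.114). Zbtb16 and Sult1a1 were not called when the 8 libraries of the vehicle-only batch were added (adjusted p 0.190 and 0.188).

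Because these receptors share a DNA element, the 250 bases before each gene's start in RefSeq (GRCm38.p6) were searched for its core, ACANNNTGT, which reads the same on both strands. Such a window was found for 11064 of the 14059 tested genes. The core stood in 3.68% of those windows (407), in 5.34% of the windows of genes that rose (26 of 487), in 3.86% of those that fell (17 of 440) and in 10.4% of those that rose at least 2-fold (11 of 106). Over all 32851 RefSeq windows, whether or not the gene was tested, it was 5.84% (1917), above the share of genes that rose. The longer form GNACANNNTGTNC, which contains the core, stood in 0.298% of tested windows (33), in 0.387% of all RefSeq windows (127) and in 2.83% of those of genes that rose at least 2-fold (3). A match in letters is a description and not a binding site, and no match says only that these letters are not in the window. Of the 15 highest genes, 13 had a window and only Pla2g10 held the core. The windows of the 3 genes with the longer form and of Pla2g10 are shown 5′ to 3′ on the strand of the gene, with the core in capitals. Fyb2 and Clic3 were picked for this form after their values were seen. Mt1 lies on the plus strand with its window at chr8:94178839-94179088, Fyb2 on the plus strand at chr4:104913311-104913560, Clic3 on the plus strand at chr2:25456593-25456842 and Pla2g10 on the minus strand at chr16:13730485-13730734.
Mt1: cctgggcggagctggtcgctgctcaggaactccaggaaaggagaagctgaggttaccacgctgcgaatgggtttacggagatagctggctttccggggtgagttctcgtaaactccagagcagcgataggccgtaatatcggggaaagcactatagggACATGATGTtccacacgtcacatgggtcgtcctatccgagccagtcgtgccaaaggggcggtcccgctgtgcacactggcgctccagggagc
Fyb2: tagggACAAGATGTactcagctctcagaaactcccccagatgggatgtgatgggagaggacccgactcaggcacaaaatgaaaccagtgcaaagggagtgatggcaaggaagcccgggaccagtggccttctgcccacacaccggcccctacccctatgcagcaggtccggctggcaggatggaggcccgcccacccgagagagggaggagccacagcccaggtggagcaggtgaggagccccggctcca
Clic3: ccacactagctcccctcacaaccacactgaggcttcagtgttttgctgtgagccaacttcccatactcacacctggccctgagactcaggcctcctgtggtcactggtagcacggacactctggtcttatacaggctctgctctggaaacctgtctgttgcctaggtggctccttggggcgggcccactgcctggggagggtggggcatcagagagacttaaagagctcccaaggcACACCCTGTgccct
Pla2g10: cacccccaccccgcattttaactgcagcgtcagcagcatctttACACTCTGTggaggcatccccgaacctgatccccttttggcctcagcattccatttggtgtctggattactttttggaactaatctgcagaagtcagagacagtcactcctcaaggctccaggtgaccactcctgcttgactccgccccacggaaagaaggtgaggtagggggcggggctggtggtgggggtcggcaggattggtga
In Mt1 the core begins 92 bases before the start, in Fyb2 245, in Clic3 14 and in Pla2g10 207. Fyb2, an adaptor protein gene, rose from a mean of 2.14 ± 0.421 to 9.05 ± 3.63 RPKM (1.79, SE 0.22, adjusted p 0.000192). Clic3, a chloride channel protein gene, rose from 2.31 ± 0.464 to 5.26 ± 1.34 RPKM (1.02, SE 0.20, adjusted p 0.00514).

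Under the same conditions the 15 lowest called decreases ran from -2.88 to -1.37 and were led by Inhbb and Dio2. Inhbb (chr1:119415465-119422248), the beta B subunit of activins and inhibins, read 14.6, 5.90, 2.64 and 1.35 RPKM in vehicle libraries 9, 10, 11b and 12 and -0.142, -0.370, 0.291 and 0.458 RPKM in progesterone libraries 4, 5, 6 and 8 (-2.88, SE 0.50, adjusted p 0.00213). Dio2 (chr12:90724552-90738438), the deiodinase that activates thyroid hormone, read 81.9, 57.6, 34.3 and 26.3 RPKM and then 8.58, 11.7, 8.77 and 11.3 RPKM (-2.13, SE 0.42, adjusted p 0.00523). In both genes the vehicle libraries spread widely, with library 9 the highest and library 12 the lowest, while the progesterone libraries lay close together. Lum (chr10:97565128-97572703), the collagen-binding proteoglycan lumican, read 131, 54.6, 52.1 and 45.3 RPKM and then 13.9, 10.1, 15.2 and 41.4 RPKM, with the high value of each treatment in the libraries that carry more stromal markers. Without vehicle library 9 the changes were -2.34 for Inhbb, -1.85 for Dio2 and -1.52 for Lum (adjusted p 0.00514, 0.0272 and 0.0285). Without all 3 libraries that stood apart Dio2 was not called (-2.16, adjusted p 0.0576). Spon2, a spondin of the matrix, read 43.4, 42.9, 38.1 and 31.0 RPKM and then 8.13, 10.3, 21.4 and 14.4 RPKM (-1.56, SE 0.22, adjusted p 0.00047). Its fall did not depend on library 9, without which it was -1.51 (adjusted p 0.00274).

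Among the rest of the 15 lowest were Cdh10, an adhesion protein of the cadherin class, with 2.66, 1.07, 1.07 and 0.791 RPKM after vehicle and -0.405 to 0.0349 RPKM after progesterone, and the anion exchanger Slc26a7, with 7.39, 5.48, 2.72 and 2.7 RPKM and then 1.41, 1.29, 1.39 and -0.295 RPKM. Nkain3, a partner of the sodium-potassium pump, fell from a mean of 2.10 ± 0.450 to 0.379 ± 0.471 RPKM and Tmem229a, a membrane protein gene, from 2.13 ± 1.23 to 0.285 ± 0.0922 RPKM. Dpp6, an auxiliary subunit of potassium channels, fell from 12.6 ± 5.05 to 4.12 ± 2.33 RPKM and the hair keratin Krt83 from 3.39 ± 1.17 to 0.802 ± 0.276 RPKM. Mmp3, the matrix protease stromelysin 1, read 3.30, 2.55, 5.28 and 5.04 RPKM and then 0.791, 0.828, 1.78 and 1.53 RPKM, and the atypical cadherin Fat3 fell from 2.03 ± 0.526 to 0.495 ± 0.279 RPKM. These 8 were called with each library left out in turn wherever they were tested. Tmem229a reached 1 RPKM only in the 4 knockout vehicle libraries, so it passed the filter only through the group where it is high. It was not tested when 1 of these libraries was left out. The calls of the remaining 3 were lost in some fits that left out 1 library. The phosphate transporter Slc34a2 (-1.87) was not called without progesterone library 4, 5 or 6 or vehicle library 9 or 10 (adjusted p up to 0.0921). The kinase Dclk1 (-1.66) was lost without progesterone library 5 or 6 or vehicle library 9 or 11b (up to 0.114), and Ildr2 (-1.41) without vehicle library 12 (0.0563). On the RPKM scale Inhbb, Slc34a2, Cdh10 and Ildr2 had adjusted p of 0.0713, 0.0653, 0.0713 and 0.0666, and Krt83 was not called with the vehicle-only batch added (0.0503). Without the 3 libraries that stood apart 7 of the 15 lowest were called. Besides Dio2 the calls of Slc34a2, Slc26a7, Dclk1, Dpp6, Fat3 and Ildr2 were lost (adjusted p 0.0938, 0.0593, 0.225, 0.0731, 0.0509 and 0.164), and Tmem229a was not tested. Of the 15 highest 13 were called without them (Tnni1 and Raet1e were not tested).

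Esr1, Pgr and Nr3c1, which encode steroid receptors, fell in the knockouts. Of 16 tested genes for the progesterone receptor and its partners these 3 fell and 1, Fkbp5, rose, where 4.39% of all tested genes fell and 4.35% rose. Esr1, the estrogen receptor alpha, read 56.4, 48.5, 53.3 and 51.3 RPKM after vehicle and 32.9, 36.5, 36.0 and 32.6 RPKM after progesterone (-0.60, SE 0.07, adjusted p 6.15e-05). Pgr read 27.3, 25.3, 22.8 and 18.9 RPKM and then 15.9, 14.3, 15.2 and 8.08 RPKM (-0.83, SE 0.21, adjusted p 0.0223). Neither receptor overlapped between treatments, but the Pgr call was lost without progesterone library 8 or vehicle library 9, 10 or 11b, with adjusted p up to 0.0715. The glucocorticoid receptor Nr3c1 fell from a mean of 15.2 ± 0.890 to 10.2 ± 2.07 RPKM. Without the 3 libraries that stood apart Esr1 was still called (-0.53, adjusted p 0.00425), while Pgr and Nr3c1 were not (0.137 and 0.0630).

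**Figure D3:**
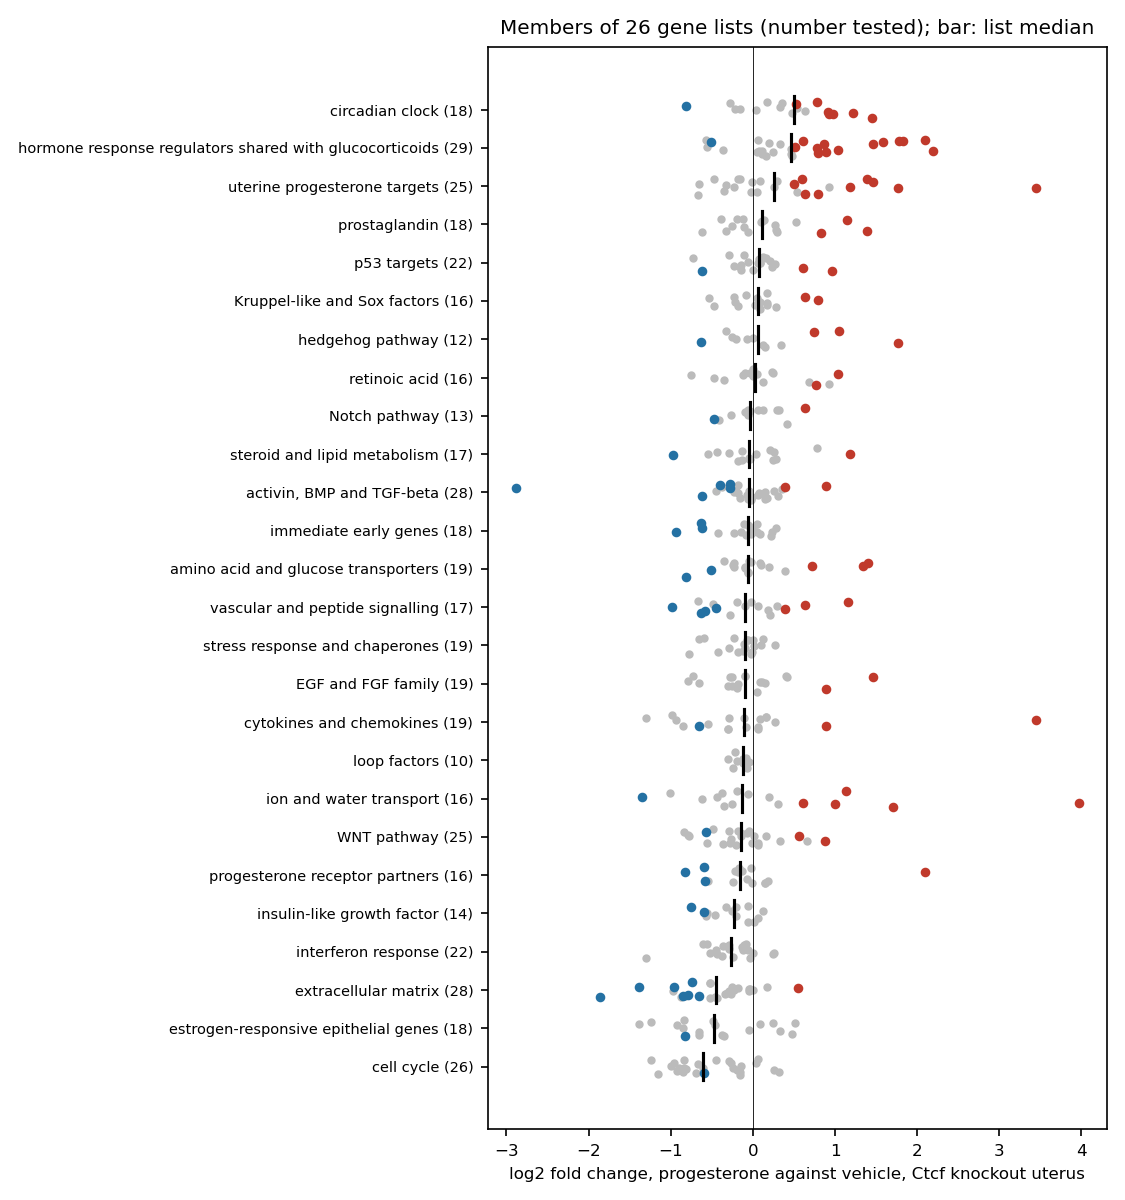
Log2 fold change after progesterone in the knockout uterus for the tested members of 26 gene lists, with the number tested in brackets, red and blue for called increases and decreases, and a bar at each list's median. Medians run from 0.50 for clock genes to -0.60 for cell cycle genes, of which 1 of 26 was called.

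Textbook uterine progesterone targets rose in part. Of 25 tested, 9 rose and none fell, where 4.35% of all tested genes rose and 4.39% fell. The list's median was 0.26 against -0.01 over all tested genes. This list too was chosen with earlier results known, so its counts are a description. Ihh (chr1:74945315-74951672), the epithelial hedgehog ligand, read 2.95, 3.97, 3.28 and 4.64 RPKM after vehicle and 10.8, 16.1, 13.4 and 15 RPKM after progesterone (1.77, SE 0.17, adjusted p 2.84e-05). The epidermal growth factor receptor ligand Areg (chr5:91139599-91148432) stayed low in RPKM, with 0.186, 0.218, 0.229 and 0.524 RPKM and then 1.22, 1.82, 1.6 and 2.08 RPKM (1.47, SE 0.15, adjusted p 4.56e-05). Ptgs1, a prostaglandin synthase (cyclooxygenase), read 11.5, 18.6, 17.0 and 16.9 RPKM and then 44.1, 44.9, 36.9 and 43.4 RPKM (1.39, SE 0.18, adjusted p 0.000242). In these 3 genes the lowest progesterone library exceeded the highest vehicle library by more than 2-fold in RPKM for Ihh and Areg and by less for Ptgs1. The patterning genes Hoxa10 and Hoxa11 rose from 57.3 ± 2.77 to 81.5 ± 6.25 and from 39.5 ± 2.7 to 68.6 ± 4.89 RPKM, Gata2, a transcription factor upstream of Pgr, from 59.2 ± 2.19 to 90.0 ± 8.66 RPKM, and Sox17, an epithelial factor upstream of Ihh, from 26.7 ± 3.32 to 41.6 ± 4.63 RPKM. Hsd11b2, which inactivates glucocorticoids, read 16, 10.4, 10.2 and 9.60 RPKM and then 35, 23.5, 16.2 and 35.6 RPKM (1.18, SE 0.23), with progesterone library 6 only just above vehicle library 9, and was not called on the RPKM scale (adjusted p 0.221). Fst, the activin antagonist follistatin, did not pass the test, at 1.64, 2.13, 1.82 and 1.77 RPKM and then 1.39, 1.24, 1.77 and 1.62 RPKM. Without the 3 libraries that stood apart 8 of 24 targets rose, and Sox17 was not called (adjusted p 0.0961).

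Ihh and 2 hedgehog genes that act downstream of it rose. Of 12 tested genes of the pathway these 3 rose and 1 fell, where 4.35% of all tested genes rose and 4.39% fell. Gli1 (chr10:127329882-127341974), the transcription factor that reports hedgehog signalling, read 21.4, 23.1, 23.6 and 22.4 RPKM after vehicle and 35.5, 52.1, 58.7 and 46.1 RPKM after progesterone (1.05, SE 0.13, adjusted p 0.00014). The hedgehog receptor gene Ptch1 went from 9.36 ± 1.43 to 16.5 ± 5.41 RPKM (0.74, SE 0.20). The Ptch1 call was lost without progesterone library 5 or 6 or vehicle library 9, 11b or 12 (adjusted p up to 0.107). Cdon, a hedgehog co-receptor, fell from 19.7 ± 3.25 to 12.6 ± 2.36 RPKM. Neither Ptch1 nor Cdon was called without the 3 libraries that stood apart (adjusted p 0.134 and 0.0625), and on the RPKM scale and with the vehicle-only batch added Ptch1 was not (0.180 and 0.0551).

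Single members of the transport lists changed, beside 4.35% of all tested genes that rose and 4.39% that fell. Of 16 tested genes of ion and water transport, Fxyd4 among them, 5 rose and 1 fell, and the median was -0.13. Scnn1a (chr6:125320659-125344943), the alpha subunit of the epithelial sodium channel, read 3.28, 4.44, 4.19 and 4.57 RPKM after vehicle and 17.3, 18.2, 11.7 and 11.8 RPKM after progesterone (1.70, SE 0.16, adjusted p 2.16e-05). Atp1b1, the beta subunit of the sodium-potassium pump, rose from 28.3 ± 2.08 to 63.4 ± 12.1 RPKM. Slc40a1, the iron exporter ferroportin, fell from 9.47 ± 3.21 to 3.38 ± 1.17 RPKM (-1.35, SE 0.22). Of 19 amino acid and glucose transporters 3 rose and 2 fell, with a median of -0.06. The glucose transporters Slc2a12, Slc2a3 and Slc2a1 rose by 1.34, 1.40 and 0.72, and the glutamate carrier Slc1a3 fell by 0.81 on the log2 scale, a call lost without progesterone library 4, 5 or 8 or vehicle library 11b or 12 (adjusted p up to 0.0945). Slc1a3 was also lost without the 3 libraries that stood apart (0.259), and on the RPKM scale Slc1a3 and Slc2a3 were not called (0.132 and 0.206).

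Signalling lists held few calls. Over all tested genes 8.74% were called, and counts of 1 to 3 genes here are not read as a change of a list. Of 28 activin, BMP and TGF-beta genes 2 rose and 5 fell, with Tgfb3, a TGF-beta ligand, lower by 0.62 (from 29.6 ± 1.56 to 19.2 ± 1.01 RPKM), the receptor Tgfbr2 lower by 0.40 and the BMP antagonist Chrd higher by 0.89. Of 19 EGF and FGF genes 2 rose, Areg and the EGF receptor inhibitor Errfi1 (0.89, from 20.1 ± 2.24 to 38.0 ± 6.66 RPKM). Of 16 retinoic acid genes 2 rose, the enzymes Aldh1a1 (1.03) and Rdh10 (0.76) that make retinoic acid. Chrd, Tgfbr2, Errfi1, Aldh1a1 and Rdh10 were not called without the 3 libraries that stood apart (adjusted p 0.0878, 0.0573, 0.0661, 0.0658 and 0.176). Of 25 WNT genes 2 rose and 1 fell, with the receptors Fzd6 at 0.88 and Fzd10 at -0.57 (not called without those 3 libraries, adjusted p 0.126). Among 13 Notch genes the effector Hey2 rose by 0.63 and the ligand Dll4 fell by 0.48, and the Dll4 call was lost without progesterone library 4, 5 or 8 or vehicle library 10, 11b or 12 (adjusted p up to 0.0843), or without those 3 libraries (0.0604). Of 18 prostaglandin genes 3 rose, which besides Ptgs1 were the prostaglandin D synthase Ptgds (1.15, from 14.3 ± 4.99 to 31.7 ± 8.73 RPKM) and the receptor Ptgfr (0.83, lost without progesterone library 5 or 6 or vehicle library 9 or 11b, adjusted p up to 0.0667). With the vehicle-only batch added Ptgds was 0.28 and Ptgfr 0.44 (adjusted p 0.811 and 0.416), Ptgds was not called without the 3 libraries that stood apart (0.198), and Ptgfr was not on the RPKM scale (0.197). Of 18 immediate early genes 3 fell, among them Egr1 (-0.93, lost without vehicle library 11b, adjusted p 0.0526) and Egr2 (-0.64). Vascular and peptide genes split, with 3 of 17 higher and 4 lower. Ramp1, a receptor partner for calcitonin-family peptides, rose from 11.8 ± 1.14 to 27.5 ± 6.55 RPKM, while the vessel growth factor Angpt1 fell from 7.31 ± 1.25 to 3.45 ± 0.465 RPKM and the endothelin receptor Ednra from 19 ± 3.95 to 12 ± 0.931 RPKM (not called without the 3 libraries, adjusted p 0.0630).

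Of 28 tested matrix genes 7 fell and 1 rose, with a median of -0.45, beside the difference in stromal markers between libraries. Among all tested genes 4.39% fell and 4.35% rose. Fn1 (fibronectin) read 243, 174, 177 and 159 RPKM after vehicle and 125, 117, 100 and 89.4 RPKM after progesterone (-0.79, SE 0.15). Col5a1, a fibrillar collagen chain, read 119, 62.5, 67.6 and 62.9 RPKM and then 46.4, 39.3, 37.3 and 43.2 RPKM (-0.85, SE 0.19). Without vehicle library 9 these were -0.66 and -0.63 (adjusted p 0.0144 and 0.0198), and without all 3 libraries that stood apart neither was called (-0.62 and -0.66, adjusted p 0.0539 and 0.0752). The matrix protease Adamts9 rose by 0.56, a call lost without progesterone library 5 or vehicle library 10 (adjusted p up to 0.0596). Igfbp5, a binding protein of insulin-like growth factors, read 314, 212, 219 and 215 RPKM and then 153, 135, 135 and 138 RPKM (-0.75, SE 0.12), and was -0.62 without vehicle library 9. Without the 3 libraries that stood apart 3 of 28 matrix genes fell and none rose (Adamts9 had adjusted p 0.0526), and the median was -0.40.

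Clock genes had the highest list median, 0.50, with 7 of 18 tested genes higher and 1 lower, against 4.35% and 4.39% of all tested genes. These counts are a description, since the list was chosen with earlier results known. Per3 (chr4:151003652-151044665), a period gene, read 3.41, 5.33, 11.8 and 10.1 RPKM after vehicle and 26.7, 23.5, 15.1 and 15.7 RPKM after progesterone (1.45, SE 0.29, adjusted p 0.00529). Per2 rose from 5.30 ± 1.71 to 12.7 ± 2.66 RPKM (1.22, SE 0.21) and the transcription factor Tef from 24.7 ± 7.30 to 47.7 ± 4.35 RPKM (0.97, SE 0.17). Arntl (chr7:113207465-113314126), which encodes BMAL1 of the activating arm of the clock, read 11.4, 14.3, 10.02 and 10.8 RPKM and then 5.14, 6.81, 8.21 and 5.55 RPKM (-0.82, SE 0.15, adjusted p 0.00262). When the 8 vehicle libraries of the other batch were added none of these 4 was called (adjusted p 0.263 for Per3, 0.154 for Per2, 0.197 for Tef and 0.768 for Arntl). Arntl was not called without the 3 libraries that stood apart either (0.0539).

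Other lists held few calls, where 4.35% of all tested genes rose and 4.39% fell. Cell cycle genes had the lowest median of the 26 pathway lists, -0.60, yet 1 of 26 was called, Ccnd1 (cyclin D1, -0.60, from 51.0 ± 7.19 to 34.4 ± 9.70 RPKM), and leaving out any of 12 of the 16 libraries ended that call (adjusted p up to 0.117), as did leaving out the 3 libraries that stood apart (0.0929). The summed cell cycle level was 566, 243, 511 and 610 RPKM in vehicle libraries 9, 10, 11b and 12. In progesterone libraries 4, 5, 6 and 8 it was 441, 280, 253 and 369 RPKM, so vehicle library 10 was the lowest of the 8. Of 18 estrogen-responsive epithelial genes 1 fell, Pgr. No gene of the stress (19), interferon (22) or loop factor (10) lists was called. Among markers of cell types, the tight junction genes Cldn4 and Cldn3 rose from 25.4 ± 5.11 to 61.4 ± 10.2 RPKM and from 50.7 ± 8.48 to 104 ± 13.7 RPKM, 2 of 11 simple epithelium markers. The summed level of that list was 362 to 493 RPKM after vehicle and 473 to 663 RPKM after progesterone, and its part in the rise of genes such as Scnn1a was not tested. Of 6 mesothelium markers, the list with the lowest median of all (-0.67), 1 fell, Wt1, from 40.6 ± 1.41 to 33.1 ± 1.32 RPKM (-0.29, SE 0.07, adjusted p 0.0148). Its call was lost without the 3 libraries that stood apart and with the vehicle-only batch added (0.102 and 0.139). The summed mesothelium level was 93.5 to 132 RPKM after vehicle and 64.1 to 89.9 RPKM after progesterone, with no overlap, and its part in the decreases was not tested. Of 10 stroma markers Hoxa10, Hoxa11 and Thy1 rose and Lum fell, and Thy1 was not called without those 3 libraries (adjusted p 0.134). No marker of smooth muscle (8), endothelium (10), leukocytes (11), squamous epithelium (5), oviduct (4), ovary (4), adipose tissue (8) or red blood cells (5) was called.

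**Figure D4:**
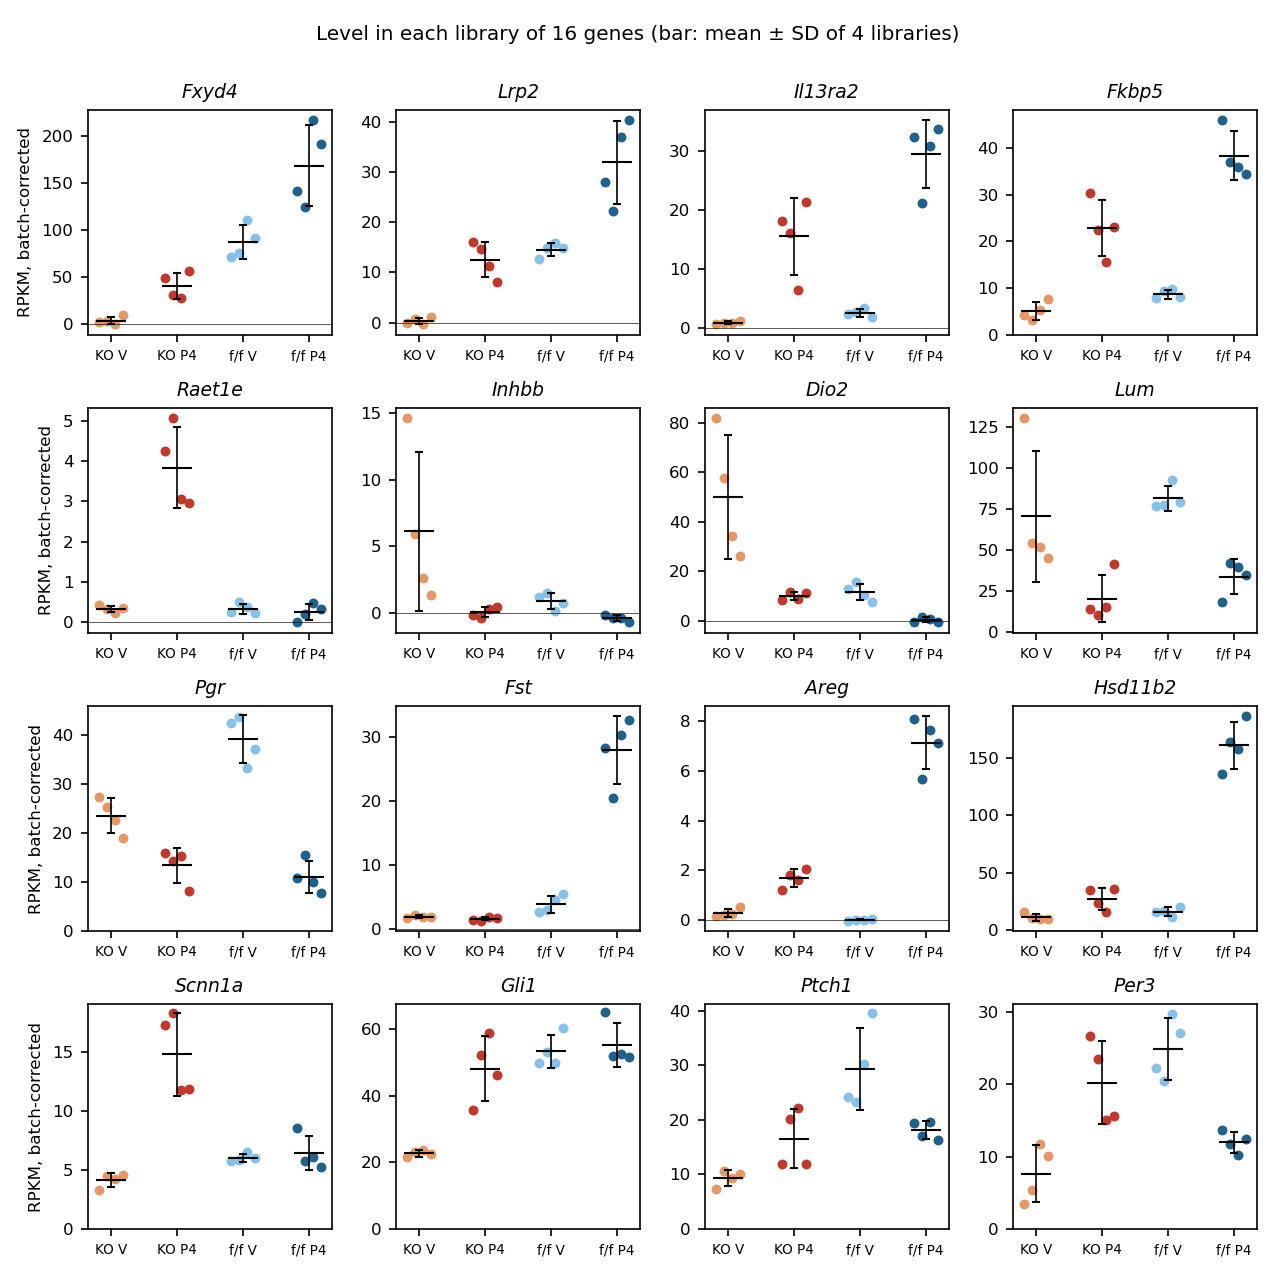
Level of 16 genes in each of the 16 libraries of the batch, in RPKM after batch correction, for knockout (KO) and floxed (f/f) uteri after vehicle (V) or progesterone (P4). Black bars are the mean ± SD of 4 libraries. Fxyd4, Il13ra2 and Fkbp5 rise in the knockouts, Raet1e and Scnn1a are highest in the knockouts after progesterone, and Fst stays at 1.24 to 2.13 RPKM in the knockouts while it reaches 20.4 to 32.6 RPKM in the floxed uteri after progesterone.

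The knockout response was then set against that of the 8 floxed libraries of the same batch, which are separate samples tested in the same fit. Floxed progesterone library 7 held oviduct markers at 543 RPKM, against 101.6 to 129.9 RPKM in the other floxed progesterone libraries. Floxed vehicle library 3 held them at 246 RPKM, against 102 to 115.9 RPKM. Both stayed in the fit without the 3 knockout libraries that stood apart. In the floxed uteri 3741 genes were called (26.6%), 1382 higher (9.83%) and 2359 lower (16.8%). Of the 1229 genes called in the knockouts 758 were called in the same direction in the floxed uteri, which is 61.7% of the knockout calls and 20.3% of the floxed calls, and 24 were called in the opposite direction. Over all tested genes the log2 fold changes of the 2 genotypes had a Pearson r of 0.58 and a Spearman rho of 0.52, as a description across genes, which are not independent and share the batch and its correction. The difference between the responses was called for 421 genes (2.99%), more positive in the knockouts for 264 (1.88%) and more negative for 157 (1.12%). Of the 421, 290 were called in the floxed uteri and not in the knockouts, and 59 the other way round. Changes of opposite sign were seen for 252, whether or not either change was called. That count includes changes near 0, such as that of Fst in the knockouts (-0.23, not called). It was not set against all tested genes and is not read as a reversal. The difference was not called for 1108 of the 1229 knockout genes, which does not show that the genotypes responded alike. Without knockout vehicle library 9 the difference was called for 313 genes, and without the 3 knockout libraries that stood apart for 168. It was called for 330 genes without floxed progesterone library 7 and for 252 without floxed vehicle library 3.

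**Figure D5:**
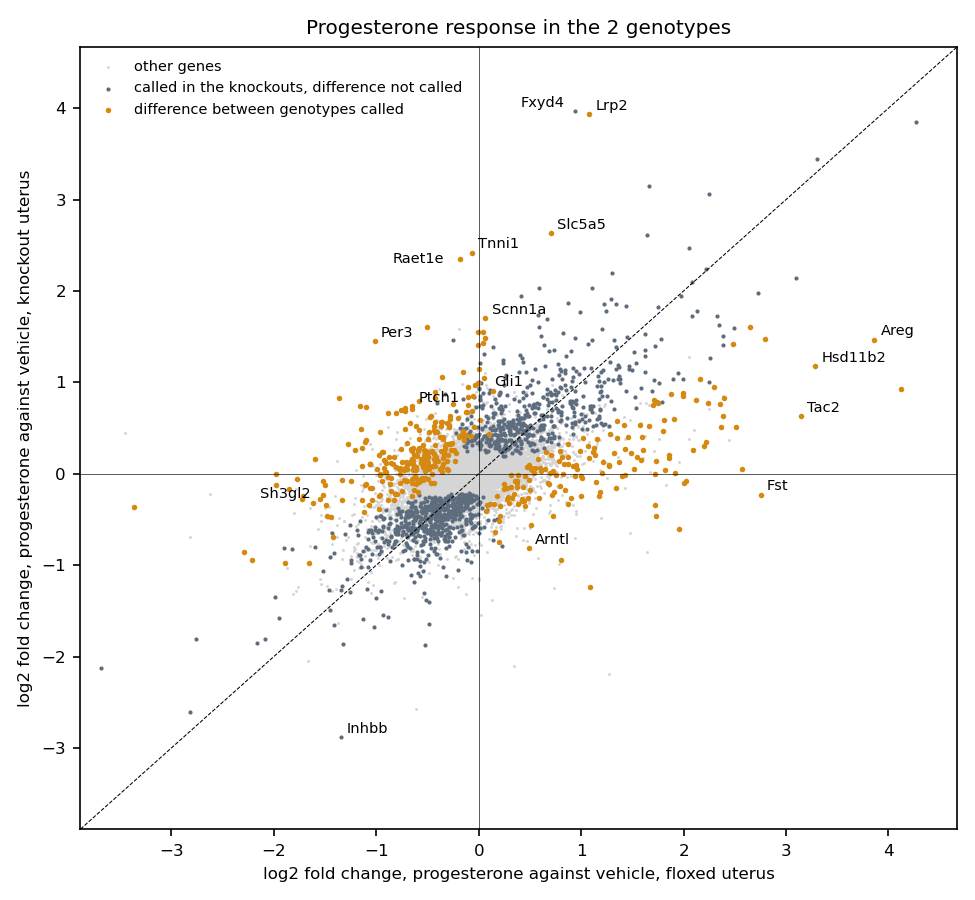
Log2 fold change after progesterone in the knockout uterus (vertical axis) against the floxed uterus (horizontal axis) for each tested gene, with the line of equal change dashed. Orange marks the 421 genes whose difference was called, from Fst, Areg, Tac2 and Hsd11b2 on the right, with a larger floxed response, to Tnni1, Raet1e and Scnn1a above 0 near the vertical axis.

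Part of the induction seen in the floxed uterus was smaller or was not detected in the knockouts. Fst (chr13:114452290-114458951) rose in the floxed uteri from 2.53, 2.91, 4.40 and 5.36 RPKM (libraries 1b, 2, 3 and 4) to 28.3, 20.4, 30.3 and 32.6 RPKM (libraries 1, 2, 7 and 9), and the difference between the responses was -2.98 (SE 0.27, adjusted p 4.79e-05). Areg went from -0.0157, 0.0276, 0.00787 and 0.0496 to 8.10, 5.68, 7.65 and 7.10 RPKM in the floxed uteri, above every knockout library (difference -2.39, SE 0.22, adjusted p 4.79e-05). Hsd11b2 (chr8:105518755-105523988) reached 136, 163, 157 and 186 RPKM in the floxed uteri after progesterone, from 11.3 to 20.5 RPKM after vehicle, against at most 35.6 RPKM in the knockouts (difference -2.10, SE 0.33, adjusted p 0.00328). Tac2 (chr10:127724478-127731768), the neurokinin B precursor, went from 0.142 to 5.16 RPKM in the floxed means and from 0.0409 ± 0.0278 to 0.353 ± 0.176 RPKM in the knockouts (difference -2.51, SE 0.22, adjusted p 4.79e-05). Tac2 passed the expression filter only through the floxed progesterone libraries, where it is high, so its p-value is not read as support. Errfi1 had a difference of -1.11 (adjusted p 0.00961) and the activin antagonist Fstl3 one of -0.62 (adjusted p 0.0252, and up to 0.0576 without knockout progesterone library 5, knockout vehicle library 9 or floxed vehicle library 1b or 3). With the vehicle-only batch added neither was called (adjusted p 0.157 and 0.319), and Fstl3 was not without the 3 libraries that stood apart (0.0901). Over all tested genes 1.12% had a difference more negative in the knockouts, and 9.83% rose and 16.8% fell in the floxed uteri. Among 25 uterine progesterone targets, 5 had a called difference, all more negative in the knockouts, and 14 rose and 3 fell in the floxed uteri. The 5 were Fst, Areg, Hsd11b2, Cyp26a1 and Calca, the last pair named for completeness after their values were seen.

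Other genes that differed in this direction were Ripor2, Pknox2, Adamts15, Sec14l1 and Npas2. Pknox2, a homeodomain factor, read 9.71, 9.55, 8.78 and 10.3 RPKM in the knockouts after progesterone, within 8.57 to 9.82 RPKM after vehicle but for library 8, and rose from 11 to 27.3 RPKM in the floxed means (difference -1.19, SE 0.11, adjusted p 6.48e-05). Adamts15, a matrix protease, went from 8.21 ± 0.494 to 10.1 ± 1.97 RPKM in the knockouts and from 5.32 to 24.5 RPKM in the floxed means (difference -1.83, adjusted p 9.14e-05). Npas2, a clock factor, stayed at 3.84 to 5.33 RPKM in the knockouts after progesterone and rose from 2.21 to 9.21 RPKM in the floxed means (difference -1.78, adjusted p 0.000423), but with the vehicle-only batch added the difference was -0.79 and not called (adjusted p 0.422). Ripor2 reached 12.2 RPKM in the floxed mean and 1.99 ± 0.231 RPKM in the knockouts (difference -2.001, adjusted p 4.96e-05).

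In the other direction, genes rose in the knockouts without a called rise in the floxed uteri. Raet1e (chr10:22158569-22374139) read 4.25, 5.05, 3.06 and 2.96 RPKM in the knockouts after progesterone against at most 0.494 RPKM in every other library of the batch (difference 2.54, SE 0.29, adjusted p 0.00025). Tnni1 (chr1:135779434-135810989) was likewise at most 0.498 RPKM outside that group (difference 2.49, SE 0.27, adjusted p 0.000159). Both genes passed the expression filter only through the group where they are high, so their values are a description and these p-values are not read as support. Scnn1a had floxed means of 6.00 and 6.40 RPKM (difference 1.64, SE 0.22, adjusted p 0.00138) and Slc5a5 of 0.463 and 1.22 RPKM (difference 1.93, SE 0.42, adjusted p 0.0224, lost without knockout progesterone library 5 or floxed vehicle library 4, up to 0.0571, and without the 3 libraries that stood apart, 0.0901). In the knockouts after progesterone all 4 stood above every floxed library.

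For a further set the knockout vehicle level was low and progesterone brought it toward the floxed vehicle level or, for Ihh, past it. Set against the floxed mean after progesterone, Fxyd4 and Lrp2 did not draw nearer in RPKM. Gli1 had floxed means of 53.2 RPKM after vehicle and 55.2 RPKM after progesterone, and the difference in response was 1.00 (SE 0.18, adjusted p 0.00739). Ptch1 went from 29.3 to 18.1 RPKM in the floxed means, with a difference of 1.39 (adjusted p 0.0168). Ihh itself rose in both genotypes, from 9.00 to 18.5 RPKM in the floxed means, and its difference was not called (0.78, adjusted p 0.111). The prostaglandin receptor Ptgfr had floxed means of 10.9 and 7.98 RPKM against 1.25 ± 0.550 and 2.59 ± 0.872 RPKM in the knockouts (difference 1.25, adjusted p 0.0305), a call lost on leaving out any of 9 libraries (up to 0.0739). Fxyd4 had floxed means of 86.9 and 168 RPKM, and its difference was not called (3.03, adjusted p 0.0608) but was without the 3 libraries that stood apart (adjusted p 0.0340), while Lrp2 had floxed means of 14.5 and 31.9 RPKM and a called difference of 2.86 (adjusted p 0.00381). On the RPKM scale both signs reversed, to -44.1 and -5.23 RPKM (adjusted p 0.326 and 0.571), and the floxed uteri gained more RPKM. With the vehicle-only batch added the differences of Lrp2, Gli1 and Ptgfr were not called (adjusted p 0.220, 0.104 and 0.653, with Ptgfr at 0.47), and without the 3 libraries that stood apart Gli1 and Ptch1 were not (0.0633 and 0.0574).

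Genes lowered in the floxed uterus and not detectably in the knockouts are given next. After them come Pgr, which fell in both genotypes, and the clock genes Per3 and Arntl, which moved in opposite directions in the genotypes. Sh3gl2, an endocytic adaptor, read 6.33, 7.01, 6.56 and 6.71 RPKM in the knockouts after progesterone, within the 6.00 to 8.05 RPKM of vehicle, and fell from 7.70 to 2.34 RPKM in the floxed means (difference 1.44, SE 0.14, adjusted p 8.53e-05). Vwa2, a matrix protein gene, went from 12.1 ± 2.47 to 10.6 ± 1.82 RPKM in the knockouts and from 11 to 2.71 RPKM in the floxed means (difference 1.68, adjusted p 0.000423). Pacsin3, another endocytic adaptor, rose from 22.7 ± 3.40 to 32.5 ± 0.958 RPKM in the knockouts and fell from 28.5 to 18.4 RPKM in the floxed means (difference 1.13, adjusted p 0.000346). Of 25 WNT genes 13 fell in the floxed uteri, where 16.8% of all tested genes fell, and 1 in the knockouts, where 4.39% did. A called difference was seen for 5, all more positive in the knockouts, against 1.88% of all tested genes. Sp5, a WNT target, was one of the 5, at 2.03 ± 0.528 and 3.19 ± 0.378 RPKM in the knockouts and 1.87 and 1.27 RPKM in the floxed means (difference 0.99, adjusted p 0.0192), and with the vehicle-only batch added its difference was 0.48 and not called (adjusted p 0.522). Pgr fell further in the floxed uteri, from 39.2 to 11 RPKM, and its difference was not called (1.00, adjusted p 0.0870) but was with the vehicle-only batch added (1.04, adjusted p 0.0197). Per3 fell from 24.9 to 12 RPKM in the floxed means (difference 2.46, adjusted p 0.00447) and Arntl rose from 2.93 to 4.35 RPKM (difference -1.31, adjusted p 0.00331). Both clock differences were lost with the vehicle-only batch added (adjusted p 0.299 and 0.932).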

How the data were processed

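RNA of whole uteri was measured by bulk sequencing, and the submitters' processing notes name cutadapt 2.7, TopHat, Partek and the build mm10. How reads were counted (annotation, strand) and with what tool batches were corrected is not stated by the labels or headers. The authors' deposited table holds RPKM per gene after batch correction, so its values are neither plain RPKM nor counts, and the unit is named "other" for that reason. Of its values in the 16 libraries used here 7.42% lie below 0. Vehicle means of both batches were equal (relative tolerance 0.0001) for 13688 of 13688 genes with a mean above 1, as they are when a constant per gene and batch is added. Differences in RPKM within a batch are unaffected by such a constant and ratios change, most near 0. The planned test assumed plain RPKM and was kept after values below 0 were raised to 0. Of the tested genes 155 had such a value, 20 of them called in the knockouts.

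The 16 libraries of the batch that holds progesterone samples (4 per genotype and treatment) were fitted as log2(RPKM + 0.5) in limma 3.58.1 under R 4.3.3 (group means only, empirical Bayes with a trend and robust settings, 12 residual degrees of freedom). Genes needed at least 1 RPKM in at least 4 of the 16 libraries. Two-sided p-values were adjusted by Benjamini-Hochberg over all 14059 genes and called under 0.05, for the knockout response, the floxed response and their difference. The fit was tested on simulated data. Depth was estimated from what 1 read is worth in low genes, using at least 212 genes per knockout library. Means over 4 libraries limit the precision, and no interval for counts was computed because the table holds none.

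The comparison, the gene lists, the alternatives and the named genes were chosen with earlier results of these data known. The rule named the 15 highest and 15 lowest called log2 fold changes among genes that reach a mean of 1 RPKM in the higher group, do not overlap between treatments and are not predicted genes. Ctcf, Pgr and Esr1 were always included, with up to 6 called members of each list by adjusted p and the 15 differences between genotypes with the smallest adjusted p under the same filters. The text describes a selection of these. Some genes are not reported here and were left out of the lists after the values were seen. Lists are described by counts and medians, without a test. Gene coordinates are from GENCODE M21 (mm10) and promoter windows from RefSeq (GRCm38.p6). Alternatives covered the pseudocount, the filter, normalization, the libraries in the fit, library weights, the RPKM scale and leaving out libraries. The fit with the vehicle-only batch added used a batch term and treated all 24 libraries as independent. That batch holds knockout library 11a and floxed library 1a, beside 11b and 1b in the main batch. Whether such a pair stems from the same animal is not in the labels.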

Additional observations from a re-analysis of the deposited data

Results flagged for a closer look

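In groups of 4 libraries a value was singled out when its gap to the nearest other library was too large a share of the group's range (Dixon's test at 95%). Of 252 such groups (the genes considered for the text and the marker lists in the knockouts) 27 were singled out, while chance alone flags about 1 in 20. Of these 27, 12 fell on vehicle library 9, 8 on progesterone library 8 and 3 on vehicle library 12.

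Vehicle library 9 was the highest of its group for the summed markers of stroma (2461 RPKM), smooth muscle (2149 RPKM) and squamous epithelium (144.9 RPKM). It was also the highest for Lum (131 RPKM), Cdh10 (2.66 RPKM), Dclk1 (11.8 RPKM), Dpp6 (20.2 RPKM), Col5a1 (119 RPKM), Ednra (24.9 RPKM), Igfbp5 (314 RPKM) and Hsd11b2 (16 RPKM), and the lowest for Aldh1a1 (22.4 RPKM). Progesterone library 8 was the highest of its group for the summed markers of stroma (1592 RPKM), smooth muscle (2022 RPKM), squamous epithelium (51.3 RPKM) and skeletal muscle (138.1 RPKM), and for Mt2 (116 RPKM) and Lum (41.4 RPKM). It was the lowest for Slc26a7 (-0.295 RPKM) and Wt1 (31.2 RPKM). Vehicle library 12 was the highest for summed oviduct markers (368 RPKM), Areg (0.524 RPKM) and Slc1a3 (11.3 RPKM). The remaining 4 were Adamts15 in vehicle library 11b (8.95 RPKM), Npas2 in vehicle library 10 (5.79 RPKM), Igfbp5 in progesterone library 4 (153 RPKM) and Tac2 in progesterone library 6 (0.0920 RPKM).

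The response to progesterone differed between genotypes, by the test of the difference itself, for 31 of 34 genes considered for it. Over all tested genes the share was 2.99%. Some of the 34 were picked for their small adjusted p in this same test, so the count is not a result about them. The change was more positive in the knockouts for Lrp2 (2.86), Raet1e (2.54), Tnni1 (2.49), Per3 (2.46), Slc5a5 (1.93), Vwa2 (1.68), Scnn1a (1.64), Sfi1 (1.47), Sh3gl2 (1.44), Ptch1 (1.39), Ptgfr (1.25), Pacsin3 (1.13), Tef (1.01), Gli1 (1.00), Sp5 (0.99), Angpt1 (0.68) and Thy1 (0.60). It was more negative for Fst (-2.98), Tac2 (-2.51), Areg (-2.39), Hsd11b2 (-2.10), Ripor2 (-2.001), Adamts15 (-1.83), Npas2 (-1.78), Arntl (-1.31), Pknox2 (-1.19), Errfi1 (-1.11), Nfil3 (-0.96), Adamts4 (-0.95), Sec14l1 (-0.69) and Fstl3 (-0.62). Tnni1 and Raet1e were not tested without 1 of the knockout progesterone libraries, nor Tac2 without 1 of the floxed progesterone libraries. With each library left out in turn 24 of the 31 kept their call wherever they were tested. With the vehicle-only batch added 13 lost it, with adjusted p of 0.157 for Errfi1, 0.319 for Fstl3, 0.422 for Npas2, 0.602 for Adamts4, 0.692 for Nfil3 and 0.775 for Tef among them, and 8 lost it without the 3 libraries that stood apart.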

How the results depend on the processing

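The number of genes called in the knockout response was 1229 and stayed within 1.5 times of that under most alternatives. It was 613 with the spread from the 8 knockout libraries alone, 7278 with weights per library (weights 0.109 to 11), and 402 without vehicle libraries 9 and 12 and progesterone library 8. With 1 library left out it ran from 799 (without knockout vehicle library 11b) to 1335. Quantile normalization moved the share of increases among the calls from 49.8% to 56.0%. For the difference between genotypes 421 genes were called, 266 with a minimum of 5 RPKM, 4975 with weights, 168 without those 3 libraries, and 219 to 585 with 1 library left out. The lowest was without knockout progesterone library 5, and leaving out knockout vehicle library 11b or floxed vehicle library 1b, 2, 3 or 4 gave 255, 254, 260, 252 and 230 in that order. Quantile normalization moved the share of more positive differences from 62.7% to 51.0%, the RPKM scale the share of increases in the knockouts to 41.1%, and weights to 37.8%. The cause was not tested.

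Signs reversed in 4 results. On the RPKM scale the differences of Fxyd4 and Lrp2 were -44.1 and -5.23 RPKM. The knockout responses of Sec14l1 and Npas2, near 0 and not called, ranged from -0.00428 to 0.0715 and from -0.0343 to 0.155 with 1 library left out, and Npas2 was -0.00866 without the 3 libraries. Of 103 called genes considered, 16 lost the call when the vehicle-only batch was added, 42 when the 3 libraries were left out, 15 on the RPKM scale and 19 with the spread from the 8 knockout libraries alone. Among the 42, some changes were as large or larger without the 3 libraries (Dio2 -2.13 and then -2.16, Slc34a2 -1.87 and then -2.32). Others were smaller (Slc26a7 -1.81 and then -1.24, Dclk1 -1.66 and then -1.51). How far the loss of libraries alone ended these calls was not tested. No paired analysis was possible because the knockout progesterone and vehicle libraries of the batch share no replicate number. The shift of genes with values below 0 was chosen after seeing the data and gave 1226 calls. Depth is known only as an estimate, and values near 0 carry the constant of the correction.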

Other observations

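Single genes of smaller lists were called as well. With 8.74% of all tested genes called, these counts are not read as a change of the lists. Of 22 tested p53 targets 2 rose and 1 fell. Ccng1, a cyclin induced by p53, rose from 48.3 ± 7.06 to 73.3 ± 5.50 RPKM (0.61, SE 0.11, adjusted p 0.00377) and the cell death gene Pmaip1 from 4.41 ± 1.22 to 8.94 ± 1.39 RPKM (0.97, SE 0.21, adjusted p 0.0103). Neither was called without the 3 libraries that stood apart (adjusted p 0.102 and 0.0844). Of 19 cytokine and chemokine genes 2 rose and 1 fell. Besides Il13ra2 the chemokine Cxcl14 rose from 42.8 ± 10.1 to 80.4 ± 20.8 RPKM (0.89, SE 0.20), not called without those 3 libraries (adjusted p 0.169). Il6st, the signalling receptor shared by interleukin 6 and leukemia inhibitory factor, fell from 80.0 ± 5.18 to 51.1 ± 10.2 RPKM (-0.66, SE 0.12, adjusted p 0.00216).

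Of 14 insulin-like growth factor genes 2 fell, Igfbp5 and the receptor Igf2r (from 30.9 ± 1.16 to 20.8 ± 4.61 RPKM, -0.59, SE 0.12, adjusted p 0.00599). Gland markers rose in 2 of 5, Aldh1a1 and Wfdc3. Wfdc3, a secreted protease inhibitor gene, read 3.08, 1.45, 0.249 and 2.42 RPKM in progesterone libraries 4, 5, 6 and 8 against 0.0880 to 0.203 RPKM after vehicle, so that library 6 lay near the vehicle level. Its call was lost on the RPKM scale and without the 3 libraries that stood apart (adjusted p 0.216 and 0.154). Uchl1, a ubiquitin hydrolase of nerve and other cells, rose from 19.1 ± 2.98 to 32.5 ± 5.94 RPKM (0.75, SE 0.14, adjusted p 0.00437, and 0.130 without those 3 libraries), while the other 3 tested nerve markers were not called.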
